A study of Mus musculus with 4 samples.

Results

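The genes described here are 41 known regulators of innate lymphoid and T lymphoid fate, with the zinc finger factor Gata3 as the gene that was targeted. They were chosen by name, and all 41 were found among the 27179 genes of the deposited table, had reads in every library and passed the filter on low reads. Their RNA was measured in cells labelled LTi (lymphoid tissue inducer), which belong to the innate lymphoid cells and help to build lymphoid tissue. They were sorted from the small intestine lamina propria of C57BL/6 mice. The gate took live Lin- cells positive for CD127 and CCR6 and negative for NKp46, NK1.1 and KLRG1. The control group had 2 libraries from Gata3+/+ mice, and the VavCre group had 2 libraries from Gata3fl/flVavCre mice, which the sample titles call Gata3-KO. In that model both Gata3 alleles are floxed and Cre recombinase is driven by Vav sequences, which are active across blood cells, so that deletion is not limited to LTi cells. The sources used here do not give whether the control mice carried Cre, nor the age, sex and number of mice behind a library. The p-values below are therefore a measure of the spread between these samples alone, and that spread may be technical.

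As background, innate lymphoid cells and T cells arise under overlapping sets of transcription factors. GATA3 is needed for T cells and for all helper-like innate lymphoid cells, ID2 keeps E proteins from binding DNA and so holds progenitors out of the B and T lineages, and TCF-1 (the Tcf7 product), TOX and PLZF (the Zbtb16 product) mark early innate lymphoid progenitors. LTi cells are counted among the group 3 innate lymphoid cells, in which GATA3 is kept at a lower level than in group 2 cells.

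Levels are in RPKM, reads scaled to gene length and to the reads of the library, and differences are VavCre minus control on the log2(RPKM + 1) scale, which understates the change of genes at low levels. Library totals were 14294708 and 12670034 reads in control and 24315878 and 23973995 reads in VavCre replicates 1 and 2. Smart-seq2 has no molecular identifiers, so counting error is a lower limit of the error. The median tested gene lay 0.43 above 0 on the deposited scale. Most differences are therefore also given after median-ratio scaling, which multiplies a library by 1 factor so that its median gene matches the other libraries, and which left the median tested gene at 0.04. A handful of genes took a large part of the reads, and Slc29a3 alone took 17.2% and 27.1% in control against 7.87% and 7.61% in VavCre replicates 1 and 2; its part in the shift was not tested.

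Markers of the sorted cells were present in every library. All 14 LTi and group 3 markers had values above 0 throughout, but several were lower in the VavCre libraries. Their summed level was 3853 and 2708 RPKM in control cells, against 1179 and 1635 RPKM in VavCre replicates 1 and 2. Il22, given below, was the largest part of the control sums. In both VavCre libraries 4 of the 14 lay above and 6 below control on the deposited scale, and 2 and 10 after median-ratio scaling. Over all 14249 tested genes those shares were 53.9% and 7.57%, then 29.8% and 25.6%. Of the positive gate markers, Ccr6 stood at 146 and 63.3 RPKM in control cells, against 155 and 176 RPKM in VavCre replicates 1 and 2, and Il7r, which codes for CD127, at 143 and 77.6 against 61.2 and 45.7 RPKM, and neither passed limma's test at an adjusted p of 0.05. RNA of the negative gate markers was found too. Ncr1, which codes for NKp46, stood at 6.84 and 14.8 against 0.0562 and 0.428 RPKM. It passed as lower (adjusted p = 0.0198 in limma), but not after median-ratio scaling (adjusted p = 0.0533). Klrb1c, which codes for NK1.1, stood at 0.585 and 7.92 against 12.1 and 4.22 RPKM, with overlap. Klrg1 stood at 1.43 and 0.231 against 0.452 and 0 RPKM, also with overlap. The cytokine gene Il22, at 2401 and 1520 against 129 and 287 RPKM, and Cd4, at 36.5 and 53.0 against 8.80 and 12.3 RPKM, passed as lower on both scales (adjusted p = 0.0212 and 0.0256 in limma, and 0.0419 and 0.0488 after median-ratio scaling). Tnfsf4, of the same list of 14, went the other way, at 2.52 and 1.62 against 22.3 and 8.32 RPKM. It passed as higher (adjusted p = 0.0447 in limma), but not after median-ratio scaling (adjusted p = 0.142). Markers of B and plasma cells, T cells and epithelium were present too, and more so in the VavCre libraries. Summed marker levels for group 2 cells, NK and group 1 cells and stroma overlapped between genotypes. Of 7 tested group 2 markers 1 passed as higher and 2 as lower, and of 13 tested NK and group 1 markers 0 and 2. Of all tested genes 0.688% passed as lower. The myeloid sum was 323 and 264 RPKM in control cells, against 407 and 519 RPKM in VavCre libraries, and 1 of 15 tested passed as higher. The summed level of 20 B and plasma cell markers was 3593 and 9310 RPKM in control cells, against 61212 and 23342 RPKM in VavCre libraries, and 16 of the 20 passed the test as higher. For 19 T cell markers the sums were 324 and 213 against 1081 and 560 RPKM, and 6 of 18 tested passed as higher. For 20 epithelial markers they were 739 and 439 against 3637 and 4749 RPKM, and 15 of 20 passed as higher. Of all tested genes 8.32% passed as higher. After median-ratio scaling the numbers that passed as higher were 2 B and plasma cell, 0 T cell and 6 epithelial markers, against 0.582% of all tested genes. At an unadjusted p under 0.05 in limma there were then 17, 7 and 17 of these markers, and 22.7% of all tested genes. Of the group 2 and the NK and group 1 markers, Arg1 and Klrk1 still passed as lower after that scaling, against 0.435% of all tested genes. Klrk1 stood at 21.4 and 25.1 RPKM in control cells, against 0.525 and 0.481 RPKM in VavCre replicates 1 and 2. In these bulk samples, fewer cells of a type and less RNA per cell cannot be told apart. The reads were not stated to be stranded, so a gene and an overlapping antisense gene cannot be told apart either.

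The RefSeq promoter table (GRCm38.p6) gave the 250 bases before at least 1 annotated start of 31 of the 41 genes, 58 windows in all. Some of these starts lie inside the span of the gene, as those of Gata3 and Bcl11b below do. The windows were searched for AGATAA and TGATAA on both strands, letters of the site that GATA factors recognise. The windows of Gata3, Irf4 and Bcl11b, the targeted gene and a pair of genes that rose in the VavCre libraries, held none, and their stretches outside the annotated exons of the same gene are shown to put the region before a reader. They lie at chr2:9878601-9878850 (minus strand), chr13:30748983-30749225 (plus strand) and chr12:108003603-108003664 (minus strand) and are written 5′ to 3′ along the gene.
Gata3: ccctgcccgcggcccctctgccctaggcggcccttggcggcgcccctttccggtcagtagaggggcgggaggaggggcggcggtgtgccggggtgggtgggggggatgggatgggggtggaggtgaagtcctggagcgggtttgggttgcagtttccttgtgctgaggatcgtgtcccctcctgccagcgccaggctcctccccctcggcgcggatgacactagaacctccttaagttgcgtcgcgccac
Irf4: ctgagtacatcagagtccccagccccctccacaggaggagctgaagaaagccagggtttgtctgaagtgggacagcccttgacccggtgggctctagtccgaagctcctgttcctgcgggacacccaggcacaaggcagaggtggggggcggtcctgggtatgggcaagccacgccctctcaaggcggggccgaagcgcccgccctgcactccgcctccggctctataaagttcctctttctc
Bcl11b: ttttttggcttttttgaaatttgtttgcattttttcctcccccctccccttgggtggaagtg

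Of the 31 genes, 4 held the letters in at least 1 window: Bach2, Batf, Foxp3 and Lef1. Over all 27025 genes of the table the share was 18.8%. Matches of Bach2 (chr4:32417185-32417213), Batf (chr12:85686470-85686500) and Foxp3 (chrX:7579538-7579566), all on the plus strand, are shown with the letters or their reverse complement in capitals, because these genes had large differences that did not pass the test.
Bach2: accTGATAAgggaagcttgtctgcaggga
Batf: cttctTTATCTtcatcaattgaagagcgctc
Foxp3: accccccccccaccctgcaaTTATCAgca

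The Bach2 match lies inside the gene, which spans chr4:32238413-32586109. A match says only that these letters are in the window, and the data hold no measure of binding.

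Gata3, the targeted gene (Entrez 14462, chr2:9857078-9887953, GRCm38), was measured at 84.3 and 50.7 RPKM in control replicates 1 and 2 and at 34.5 and 23.3 RPKM in VavCre replicates 1 and 2. The VavCre libraries were both lower than either control library, and Gata3 RNA was still clearly present in them, with 2698 and 1798 reads. Group means came to 67.5 ± 23.7 RPKM for control and 28.9 ± 7.91 RPKM for VavCre (SD, n = 2 per genotype). The difference was -1.18 ± 0.36 (SE) with an adjusted p of 0.0904 in limma, and -1.76 with an adjusted p of 0.0793 after median-ratio scaling, so Gata3 did not pass at 0.05 on either scale. A floxed allele can go on being transcribed outside the deleted exons and the reads are summed over the gene, so these values check the labels in part only. Zfpm1, which codes for the GATA cofactor FOG1, was low, at 0.723 and 1.70 RPKM in control cells, against 1.11 and 1.27 RPKM in VavCre replicates 1 and 2, and its genotypes overlapped.

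**Figure D1:**
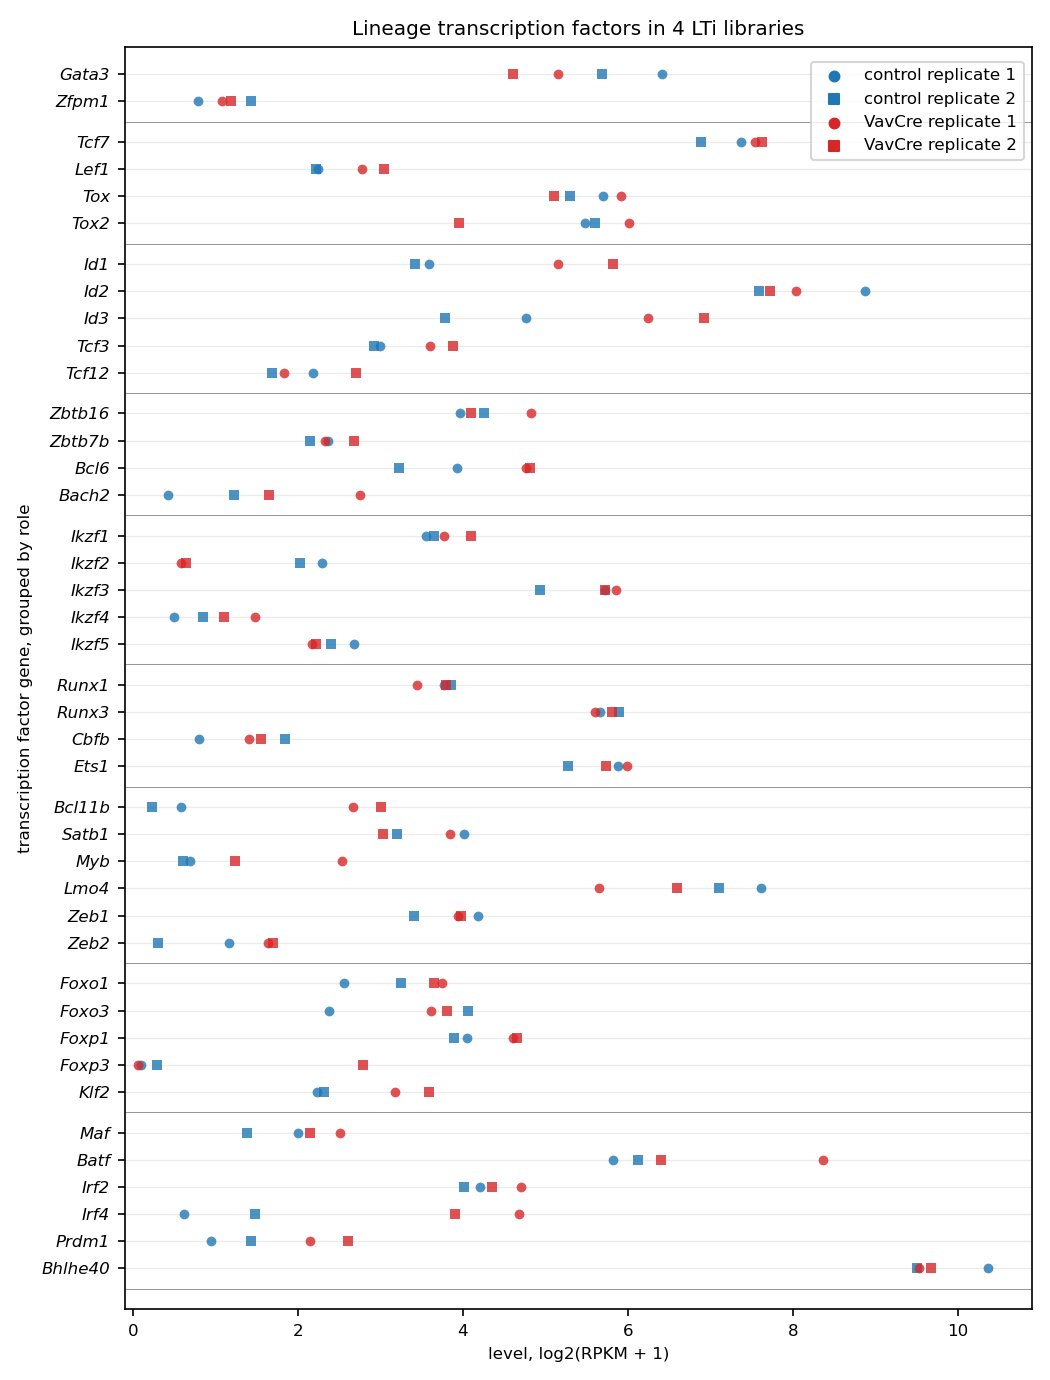
Level of each of the 41 genes in each library, as log2(RPKM + 1) on the horizontal axis, grouped by role; blue is control, red is VavCre, circles are replicate 1 and squares replicate 2. Bhlhe40, Id2, Lmo4, Tcf7 and Gata3 had the highest control means. In Gata3, Lmo4, Ikzf2 and Ikzf5 the red symbols lie left of both blue ones.

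The share of Gata3 within its family was also lower in the VavCre libraries. Gata3 made up 97.4% and 99.3% of the summed RPKM of the 6 GATA genes in control and 84.6% and 70.1% in VavCre replicates 1 and 2, a measure that does not depend on how libraries are scaled. The rest was mostly Gata4, at 1.26 and 0.0233 RPKM in control cells, against 3.87 and 3.31 RPKM in VavCre libraries, and Gata5, at 0.403 and 0.239 against 1.56 and 5.51 RPKM. Gata4, Gata5 and Gata6 are known from gut epithelium, whose markers moved with them as given above; the part of epithelial RNA in these values was not tested. Gata1 and Gata2, the GATA factors of red cells, mast cells and progenitors, were at or near 0 in each library.

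By control mean, Gata3 ranked below 4 of the other factors, Bhlhe40, Id2, Lmo4 and Tcf7. Bhlhe40, a basic helix-loop-helix repressor of activated lymphocytes, was highest of all at 1318 and 725 RPKM in control cells, against 740 and 815 RPKM in VavCre replicates 1 and 2. Id2 followed at 469 and 192 against 263 and 210 RPKM, and in both genes the spread between the control replicates exceeded the difference of the genotype means. Their differences were -0.33 (adjusted p = 0.608 in limma) and -0.35 (adjusted p = 0.646), or -0.93 and -0.95 after median-ratio scaling, where for each gene the VavCre libraries were both lower than either control library but neither passed (adjusted p = 0.174 and 0.273). The lowest control means were those of Bcl11b and Foxp3.

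HMG-box factors, which bend DNA and act early in innate lymphoid and T cell development, did not pass the test in either direction. Tcf7 stood at 165 and 117 RPKM in control cells, against 185 and 196 RPKM in VavCre replicates 1 and 2. Its difference was 0.45 ± 0.30 (adjusted p = 0.353 in limma) as deposited and turned to -0.14 with median-ratio scaling. Its relative Lef1 stood at 3.75 and 3.66 against 5.88 and 7.22 RPKM, above control in both VavCre libraries on both scales (0.68 and 0.18), without passing. Tcf7 was the main member of its family throughout, with 97.0% and 96.2% of the family RPKM in control and 92.3% and 91.4% in VavCre libraries. The difference was taken up mostly by Tcf7l2, a TCF gene of gut epithelium among other tissues, at 0.820% and 0.555% against 4.71% and 5.08%.

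The TOX genes were variable within the VavCre genotype. Tox, which is needed for innate lymphoid and CD4 T cell development, stood at 50.8 and 38.5 RPKM in control cells, against 59.2 and 33.5 RPKM in VavCre replicates 1 and 2, and its genotypes overlapped. Tox2, a paralog known from NK cells and follicular helper T cells, stood at 43.7 and 47.7 RPKM in control, whereas the VavCre replicates were at 63.5 and 14.5 RPKM, one above and one below both control libraries. Without VavCre replicate 2 the Tox2 difference turned from -0.56 to 0.47.

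Id1 and Id3, inhibitors of E proteins, rose in the VavCre libraries while Id2 did not, so that the makeup of the ID family shifted. Id1 (Entrez 15901, chr2:152736251-152737410) stood at 11.0 and 9.70 RPKM in control cells, against 34.7 and 55.4 RPKM in VavCre replicates 1 and 2, a 4.36-fold difference of the means. Id3 (Entrez 15903, chr4:136143822-136145392) stood at 26.2 and 12.8 against 75.0 and 120 RPKM, 5.0-fold. In both genes each VavCre library lay above each control library on both scales. The differences were 1.99 ± 0.32 for Id1 (adjusted p = 0.0254 in limma) and 2.31 ± 0.42 for Id3 (adjusted p = 0.0323), and after median-ratio scaling 1.42 (adjusted p = 0.0777) and 1.73 (adjusted p = 0.0884), which did not pass.

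Shares within the family show the same pattern free of scaling. Id2 made up 92.7% and 89.5% of the ID family RPKM in control and 70.5% and 54.5% in VavCre replicates 1 and 2. The share of Id3 was 5.17% and 5.95% against 20.1% and 31.1%, and that of Id1 2.17% and 4.52% against 9.30% and 14.4%. For none of the 3 shares did the genotypes overlap, and with 2 libraries against 2 the smallest two-sided p that an exact permutation test can give is 0.333. Id1 and Id3 are also expressed in intestinal epithelium and B cells, and markers of both were higher in the same libraries; their part was not tested.

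E proteins, the DNA-binding partners that ID proteins hold back, did not pass where they are among the 41. Tcf3, which codes for E2A, stood at 6.98 and 6.59 RPKM in control cells, against 11.1 and 13.7 RPKM in VavCre replicates 1 and 2 (0.78 ± 0.29, adjusted p = 0.138 in limma; 0.24 after median-ratio scaling). Tcf12, which codes for HEB, stood at 3.55 and 2.21 against 2.57 and 5.49 RPKM with overlapping genotypes. Their paralog Tcf4, which codes for E2-2, a factor of plasmacytoid dendritic cells and B cells, did rise, from 10.3 and 9.66 to 25.6 and 29.4 RPKM (1.37, adjusted p = 0.0356), but did not pass after median-ratio scaling (0.81, adjusted p = 0.125).

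Summed over each family, the balance of inhibitor to E protein RNA was lower in the VavCre libraries. The 4 ID genes together had 24.3 and 11.6 times the RPKM of the 3 E protein genes in control and 9.50 and 7.91 times in VavCre replicates 1 and 2. For Id2 alone the ratio to E protein RNA was 22.5 and 10.4 against 6.70 and 4.31. The E protein sum was 20.9 and 18.5 RPKM in control cells, against 39.2 and 48.7 RPKM in VavCre libraries, whereas the ID sum, at 506 and 214 against 373 and 385 RPKM, overlapped between genotypes. These ratios were chosen after the values were seen and are a description. Siglech, a marker of plasmacytoid dendritic cells, stood at 0.233 and 0.0659 RPKM in control cells, against 30.8 and 15.3 RPKM in the same VavCre libraries, and its part in the E protein sum was not tested.

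**Figure D2:**
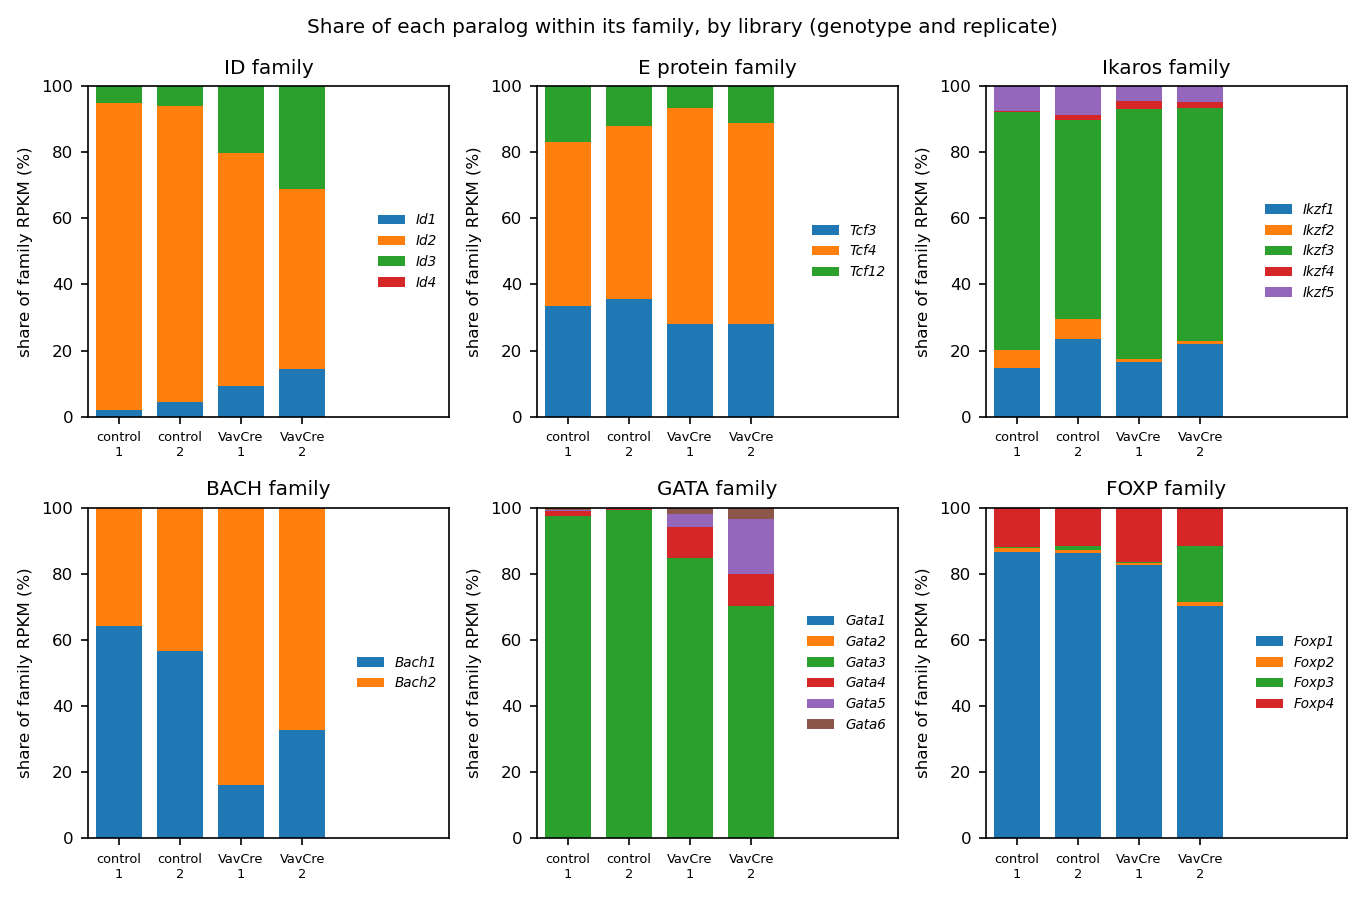
Share of each paralog in the summed RPKM of its family, in percent, for 6 families; each bar is a library, with control replicates 1 and 2 on the left and VavCre replicates 1 and 2 on the right. Id2 is 92.7% and 89.5% of its family in control and 70.5% and 54.5% in VavCre libraries, Ikzf2 is a band of 5.41% and 6.26% in control against 0.667% and 0.772%, and Foxp3 is a band of 17.2% in VavCre replicate 2, against 1.38% or less in the others.

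Among BTB zinc finger factors, Bcl6 had the largest difference. Zbtb16, which codes for PLZF, stood at 14.6 and 18.1 RPKM in control cells, against 27.4 and 16.1 RPKM in VavCre replicates 1 and 2, and Zbtb7b, which codes for the CD4 lineage factor ThPOK, at 4.17 and 3.44 against 4.02 and 5.41 RPKM. Both overlapped between genotypes. Bcl6, a repressor of germinal centre B cells and follicular helper T cells, stood at 14.2 and 8.34 RPKM in control cells, against 26.2 and 27.1 RPKM in VavCre libraries. Both VavCre libraries were above both control libraries on both scales, and the difference of 1.22 ± 0.33 did not pass (adjusted p = 0.0687 in limma; 0.66 with an adjusted p of 0.251 after median-ratio scaling).

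Bach2, a repressor that holds B and T cells back from effector differentiation, was low in control and higher in VavCre libraries. It stood at 0.346 and 1.34 RPKM in control cells, against 5.74 and 2.13 RPKM in VavCre replicates 1 and 2, with means of 0.842 ± 0.702 and 3.94 ± 2.55 RPKM. Its difference of 1.37 ± 0.50 did not pass (adjusted p = 0.127 in limma), and after median-ratio scaling the genotypes overlapped. Bach2 rather than Bach1 was the main BACH gene in VavCre libraries, with 84.0% and 67.4% of the pair against 35.8% and 43.3% in control. The B cell factor Pax5 stood at 0.0579 and 1.76 RPKM in control cells, against 11.7 and 13.1 RPKM in VavCre libraries, and the part of B cell RNA in the Bach2 and Bcl6 values was not tested.

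Ikzf2, which codes for Helios, was the 1 gene of the 41 that limma called lower. Helios (Entrez 22779, chr1:69531207-69687351) is an Ikaros family zinc finger factor known from regulatory T cells and from group 3 innate lymphoid cells. Ikzf2 stood at 3.90 and 3.07 RPKM in control cells, against 0.502 and 0.567 RPKM in VavCre replicates 1 and 2, from 525 and 367 reads against 115 and 128 reads although the VavCre libraries were deeper. The means of 3.49 ± 0.582 and 0.534 ± 0.0457 RPKM were 6.52-fold apart, and replicates of each genotype lay close together. The difference was -1.54 ± 0.32 (adjusted p = 0.0399 in limma) and -1.87 after median-ratio scaling, where it did not pass (adjusted p = 0.0589).

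None of the other Ikaros genes passed on either scale. Ikzf3, which codes for Aiolos, was the most abundant at 51.6 and 29.5 RPKM in control cells, against 56.9 and 51.9 RPKM in VavCre replicates 1 and 2, followed by Ikzf1, which codes for Ikaros, at 10.7 and 11.5 against 12.6 and 16.2 RPKM. Their differences of 0.47 and 0.33 turned to -0.12 and -0.22 with median-ratio scaling, and neither passed. Ikzf4, which codes for Eos, was low at 0.410 and 0.794 against 1.78 and 1.15 RPKM, and Ikzf5, which codes for Pegasus, stood at 5.39 and 4.26 against 3.51 and 3.65 RPKM, with both VavCre libraries below both control libraries on both scales (-0.34 and -0.82) and no pass. Within the family Ikzf2 made up 5.41% and 6.26% in control and 0.667% and 0.772% in VavCre libraries.

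RUNX factors and their partners, which act throughout lymphoid development, showed no difference that passed. Runx3, the main RUNX gene of these cells, stood at 49.8 and 58.2 RPKM in control cells, against 47.6 and 55.0 RPKM in VavCre replicates 1 and 2, and Runx1 at 12.7 and 13.5 against 9.87 and 12.9 RPKM. Runx3 made up 75.2% and 76.9% of the RUNX family RPKM in control and 78.0% and 77.7% in VavCre libraries. On the deposited scale the genotypes overlapped for both genes. After median-ratio scaling the VavCre libraries were both lower than either control library, at -0.66 for Runx3 (adjusted p = 0.19 in limma) and -0.75 for Runx1 (adjusted p = 0.178). Cbfb, the shared RUNX partner, was low and variable at 0.744 and 2.60 against 1.65 and 1.93 RPKM, and Ets1, an ETS factor of lymphocytes, stood at 57.8 and 37.7 against 62.8 and 52.1 RPKM, and both overlapped.

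Bcl11b rose the most in relative terms among the genes that passed. Bcl11b (Entrez 58208, chr12:107910403-108004145) is the zinc finger factor that commits progenitors to the T lineage and is also expressed in group 2 innate lymphoid cells. It stood at 0.494 and 0.169 RPKM in control, from 56 and 17 reads, and at 5.33 and 7.03 RPKM in VavCre replicates 1 and 2, from 1026 and 1335 reads. The means of 0.332 ± 0.230 and 6.18 ± 1.20 RPKM were 18.6-fold apart, and the difference was 2.43 ± 0.34 (adjusted p = 0.0206 in limma), or 2.11 after median-ratio scaling (adjusted p = 0.0575). Bcl11b was higher in VavCre replicate 2 than in replicate 1, as were 5 of the 19 T cell markers, among them Lat at 250 against 144 RPKM and Cd247 at 10.3 against 9.51 RPKM. The other 14 were higher in replicate 1, among them Cd3e at 111 against 26.3 RPKM. The part of T cell RNA in the Bcl11b values was not tested.

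Other factors of T cell development and the LIM cofactor Lmo4 did not pass. Satb1, a chromatin organiser of thymocytes, stood at 15.2 and 8.20 RPKM in control cells, against 13.4 and 7.17 RPKM in VavCre replicates 1 and 2, and the genotypes overlapped. Myb, a factor of progenitors, was low at 0.611 and 0.522 RPKM in control cells, against 4.78 and 1.35 RPKM in VavCre libraries (1.23 ± 0.48, adjusted p = 0.146 in limma; 0.93 after median-ratio scaling), above control in both. Lmo4 stood at 195 and 137 RPKM in control cells, against 49.4 and 95.8 RPKM in VavCre libraries, with means of 166 ± 41.5 and 72.6 ± 32.8 RPKM. Like Gata3, Lmo4 was lower in both VavCre libraries than in both control libraries on both scales, at -1.24 ± 0.40 (adjusted p = 0.101) and -1.83 (adjusted p = 0.0761).

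The ZEB repressors differed from each other in level. Zeb1 made up 93.2% and 97.6% of the pair in control and 87.2% and 86.8% in VavCre replicates 1 and 2, at 17.2 and 9.64 against 14.4 and 14.8 RPKM. Zeb2, known from effector lymphocytes and myeloid cells, stood at 1.25 and 0.234 RPKM in control cells, against 2.11 and 2.25 RPKM in VavCre libraries, above control in both on both scales (0.93 and 0.63), with no pass (adjusted p = 0.167 and 0.402 in limma).

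**Figure D3:**
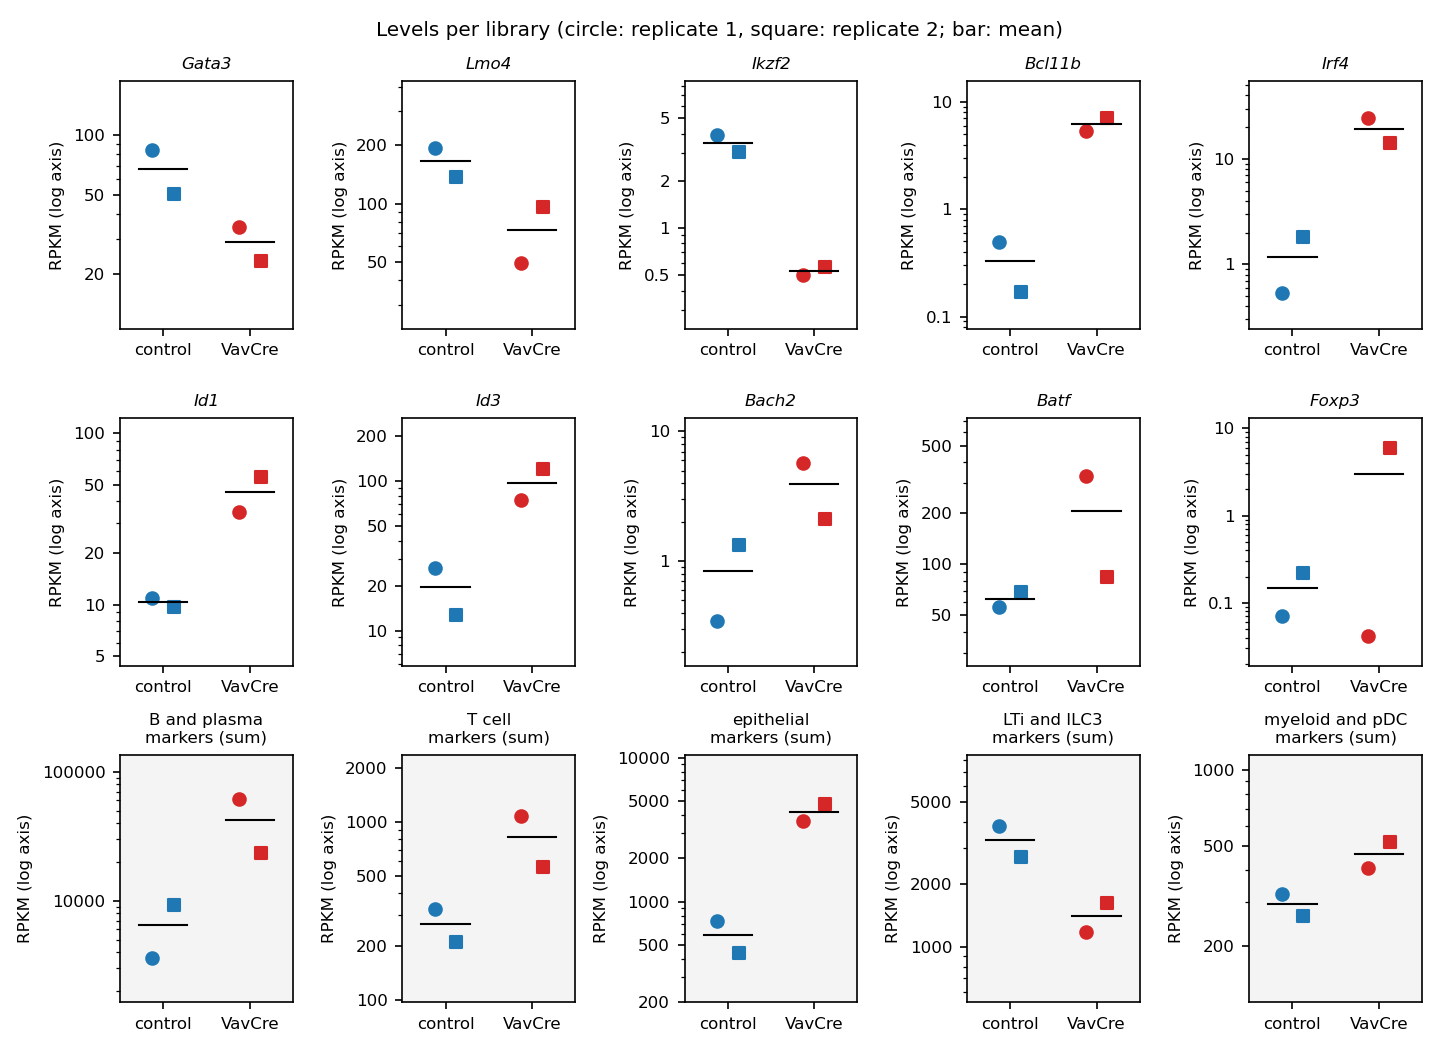
RPKM per library on logarithmic axes for 10 of the 41 genes (white panels) and for the summed RPKM of 5 marker lists (grey panels); circles are replicate 1, squares replicate 2 and bars the group means. The 2 genotypes are apart in Gata3, Lmo4, Ikzf2, Bcl11b, Irf4, Id1 and Id3, Foxp3 is high in VavCre replicate 2 alone at 5.93 RPKM, and the B, T and epithelial marker sums are higher in both VavCre libraries.

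Forkhead factors and Klf2 act on quiescence, survival and trafficking of lymphocytes. Foxo1 stood at 4.89 and 8.53 RPKM in control cells, against 12.4 and 11.6 RPKM in VavCre replicates 1 and 2 (0.79 ± 0.34, adjusted p = 0.18 in limma; 0.26 after median-ratio scaling, with overlap). Foxo3 varied most between the control libraries, at 4.19 and 15.7 against 11.2 and 13.0 RPKM. Foxp1, which maintains quiescence, stood at 15.6 and 13.8 against 23.3 and 24.3 RPKM (0.66 and 0.10), and Klf2, which controls egress receptors, at 3.70 and 3.96 against 8.08 and 11.0 RPKM (1.11 ± 0.32, adjusted p = 0.0768; 0.60 after median-ratio scaling). Both VavCre libraries were above both control libraries for Foxp1 and Klf2 on both scales, and neither passed.

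Foxp3, the factor that defines regulatory T cells, was detected at more than trace level in 1 library only. It stood at 0.0712 and 0.221 RPKM in control cells, against 0.0419 RPKM in VavCre replicate 1, from 4, 11 and 4 reads, and at 5.93 RPKM in VavCre replicate 2, from 558 reads. Its difference of 1.23 ± 0.94 therefore rested on that library, did not pass (adjusted p = 0.436 in limma) and was -0.13 without it. The T cell marker sum was higher in VavCre replicate 1 than in replicate 2, at 1081 against 560 RPKM, while 5 of its 19 genes, Lat and Cd247 among them, were higher in replicate 2, as Foxp3 was. The part of T cell RNA in the Foxp3 values was not tested.

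Irf4 rose most of all 41 genes on the log2 scale. Irf4 (Entrez 16364, chr13:30749233-30766981) codes for an interferon regulatory factor family member needed in plasma cells and in activated B and T cells. It stood at 0.538 and 1.80 RPKM in control, from 36 and 107 reads, and at 24.6 and 14.0 RPKM in VavCre replicates 1 and 2, from 2798 and 1568 reads. The means of 1.17 ± 0.895 and 19.3 ± 7.50 RPKM were 16.5-fold apart, and the difference was 3.24 ± 0.44 (adjusted p = 0.0196 in limma), or 2.79 after median-ratio scaling (adjusted p = 0.074).

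Batf and Prdm1, which act with IRF4 in effector lymphocytes, did not pass. Batf, the bZIP factor that binds DNA with IRF4, stood at 55.6 and 68.9 RPKM in control cells, against 329 and 83.7 RPKM in VavCre replicates 1 and 2. Most of its difference of 1.41 ± 0.65 (adjusted p = 0.209 in limma) came from VavCre replicate 1, without which it was 0.43, and with median-ratio scaling the genotypes overlapped. Prdm1, which codes for Blimp-1, the repressor of plasma cells and effector lymphocytes, stood at 0.925 and 1.69 against 3.42 and 5.10 RPKM (1.19 ± 0.37, adjusted p = 0.0931; 0.77 after median-ratio scaling), above control in both VavCre libraries on both scales. Like Irf4 and Batf, the B and plasma cell marker sum was higher in VavCre replicate 1 than in replicate 2, at 61212 against 23342 RPKM, while Prdm1 was higher in replicate 2. The part of B and plasma cell RNA in these values was not tested.

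Maf and Irf2 completed the group without a pass. Maf, a bZIP factor of IL-10 and IL-17 producing lymphocytes, stood at 3.0 and 1.60 RPKM in control cells, against 4.72 and 3.41 RPKM in VavCre replicates 1 and 2 (0.64 and 0.20), and Irf2, an interferon regulatory factor, at 17.4 and 15.1 against 25.0 and 19.5 RPKM. The Irf2 difference of 0.42 turned to -0.15 with median-ratio scaling.

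Counted over the 41 genes, limma called 4 higher in VavCre cells (Irf4, Bcl11b, Id1 and Id3) and 1 lower (Ikzf2), which is 12.2% of them, against 9.0% of all 14249 tested genes. By direction, 8.32% of all tested genes were called higher and 0.688% lower. At an unadjusted p under 0.05 there were 14 of the 41, or 34.1%, against 30.5% of all tested genes. After median-ratio scaling 0 of the 41 were called in limma, against 1.02% of all tested genes, and 11, or 26.8%, had an unadjusted p under 0.05, against 22.7% of all tested genes. With limma-voom on recovered reads 3 were called as deposited, and Ikzf2 alone after that scaling. Without any 1 of the 4 libraries limma called 0 genes of the whole table, so those fits do not tell whether a call rests on 1 library. In them 9 to 14 of the 41 had an unadjusted p under 0.05 and the 5 called genes held their direction, with Irf4 between 2.80 and 3.67, Bcl11b between 2.25 and 2.61, Id3 between 1.82 and 2.80, Id1 between 1.66 and 2.32 and Ikzf2 between -1.67 and -1.41.

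**Figure D4:**
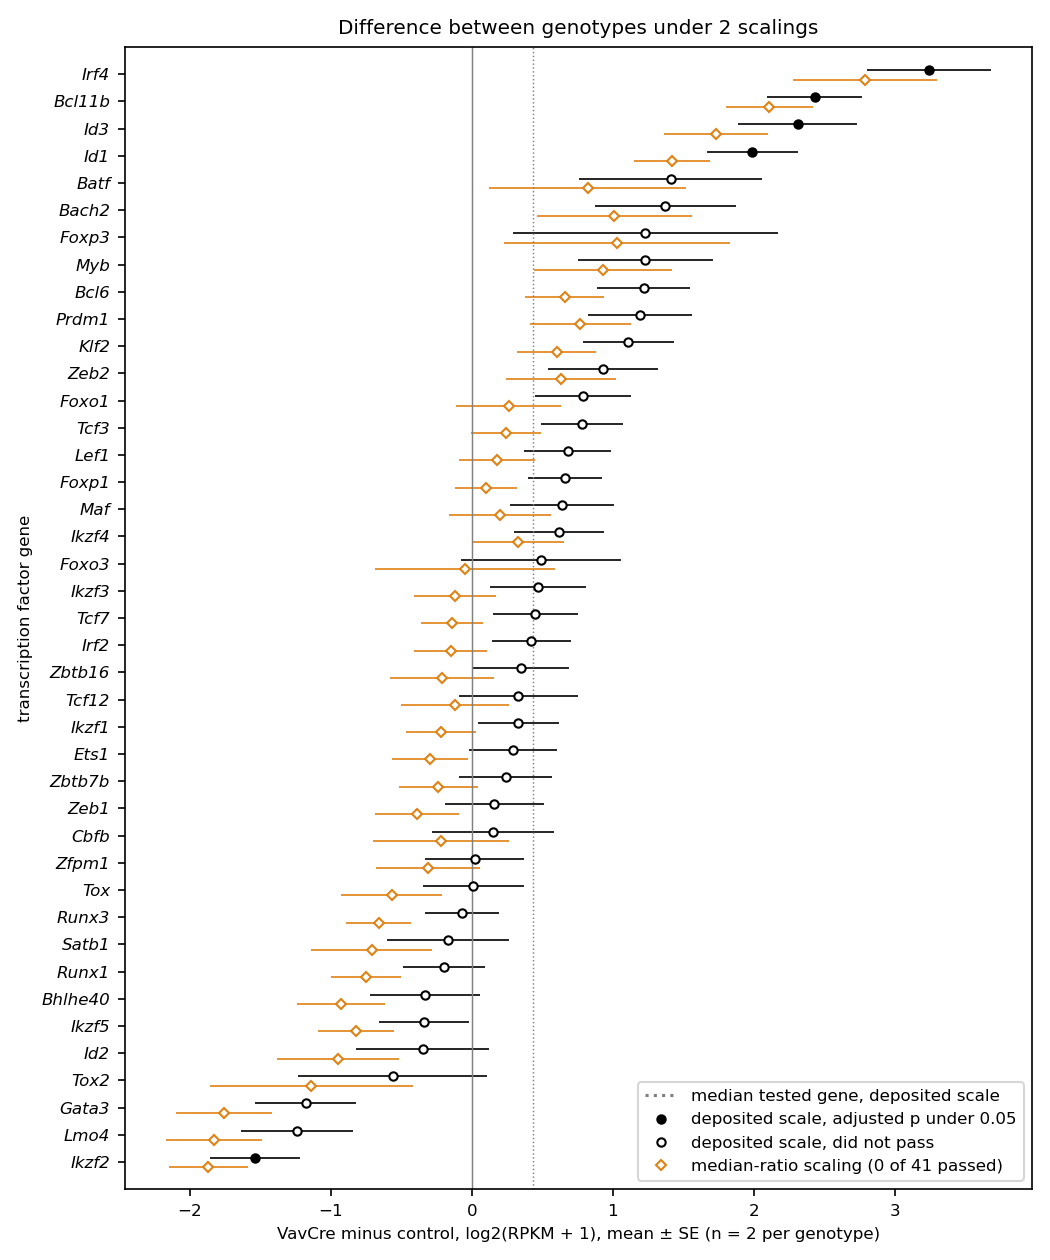
Difference of the genotype means with its standard error for each of the 41 genes, in log2(RPKM + 1), n = 2 libraries per genotype; circles are the deposited scale (filled where the adjusted p in limma is under 0.05) and orange diamonds median-ratio scaling. The dotted line is the median tested gene at 0.43, and each diamond lies left of its circle.

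Without a test, the order of the libraries gives a similar picture. Both VavCre libraries lay above both control libraries in 21 of the 41 genes on the deposited scale, 51.2% of them, against 53.9% of all tested genes, and below in 4, 9.76%, against 7.57%. After median-ratio scaling it was 12 above, 29.3% against 29.8% of all tested genes, and 10 below, 24.4% against 25.6%. These shares are close to those of all genes on both scales. The median difference of the 41 was 0.45 where that of all tested genes was 0.43, and -0.12 against 0.04 after median-ratio scaling.

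The order was the same on both scales for 16 of the 41 genes. Those above control were Lef1, Id1, Id3, Tcf3, Bcl6, Bcl11b, Myb, Zeb2, Foxp1, Klf2, Irf4 and Prdm1, 12 in all. Those below control were 4: Gata3, Lmo4, Ikzf2 and Ikzf5. The sign of the difference was the same on both scales in 28 genes and turned from above to below 0 in 13, among them Tcf7, Tox, Zbtb16, Ikzf1, Ikzf3, Ets1 and Zeb1.

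**Figure D5:**
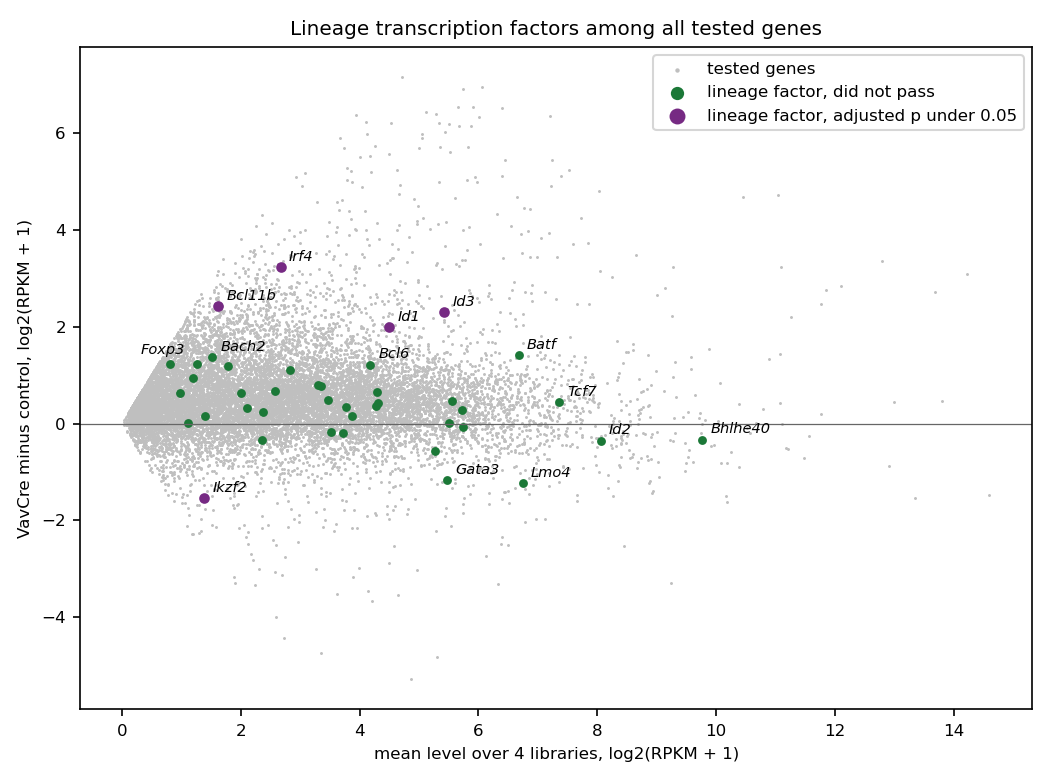
Difference between genotypes against the mean level over the 4 libraries, both in log2(RPKM + 1), for all tested genes (grey) and the 41 factors (green, or purple where the adjusted p in limma is under 0.05). The factors lie among the other genes, with Irf4 at 3.24 and Ikzf2 at -1.54 as their extremes.

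Other regulators of innate lymphoid and T cells were counted in the same way. Of 30 listed, 26 were tested, and 2 were called higher on the deposited scale and 0 lower, 7.69% of them, against 9.0% of all tested genes. These were Tcf4, described above, and Spi1, which codes for PU.1 of myeloid and B cells, at 5.56 and 4.32 RPKM in control cells, against 13.7 and 21.2 RPKM in VavCre replicates 1 and 2 (1.61, adjusted p = 0.0406 in limma). Neither passed after median-ratio scaling. The median difference of the list was 0.30, and -0.20 after median-ratio scaling. On the deposited scale 9 of the 26 were above and 6 below control in both VavCre libraries, where 53.9% and 7.57% of all tested genes were. After median-ratio scaling 5 were above and 12 below, where 29.8% and 25.6% of all tested genes were. Rora, Nfil3, Hhex, Runx2, Irf1 and Batf3 were below control on both scales, and none of them passed.

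Partners through which the 41 factors act on chromatin, such as the NuRD subunits Chd4, Mta2 and Rbbp4 and the corepressors Ncor1 and Sin3a, had no call. Of 30 such genes 28 were tested, and limma called 0 of them on either scale, with 4 at an unadjusted p under 0.05 on each, where 30.5% and 22.7% of all tested genes had one. Their median difference was 0.07 as deposited and -0.41 after median-ratio scaling, below the medians of 0.43 and 0.04 of all tested genes. On the deposited scale 10 were above and 1 below control in both VavCre libraries, where 53.9% and 7.57% of all tested genes were. After median-ratio scaling 2 were above and 17 below, where 29.8% and 25.6% of all tested genes were.

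Relative to other lineage factors of the same library, Gata3 RNA was lower in VavCre cells. The ratio of Gata3 to Tcf7 RPKM was 0.510 and 0.433 in control and 0.187 and 0.119 in VavCre replicates 1 and 2, and that of Gata3 to Runx3 was 1.69 and 0.872 against 0.726 and 0.424. For neither ratio did the genotypes overlap. A ratio within a library does not depend on its scaling, and shows unequal levels without saying which gene changed. These ratios too were chosen after the values were seen.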

How the data were processed

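Per the labels' protocols, a miRNeasy Micro kit was used for RNA and Smart-seq2 for libraries. The submitters' processing notes name Subread, featureCounts and mm10, and the sources used here give no versions. In the deposited table each gene has 1 value per library on a log2 scale. From the values it was worked out that each is log2(RPKM + 1) plus 0.0001, each library being scaled to its own total alone.

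Whole reads were recovered from the values, which at 1 length per gene are whole multiples of 1 read. In 99.98% of 19047 genes with reads all 4 numbers came out whole within 0.001 reads, and they summed to 98.8% to 99.5% of the library totals. Lengths were picked so that reads came out whole, so a gene's number can be off by a whole factor. A floor of 3 reads was 0.123 to 0.237 CPM.

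A count test had been planned, and its stated fallback was used because the table holds no counts: limma 3.58.1 (R 4.3.3), with its trend and robust options, on log2(RPKM + 1), pseudocount 1, genotype as the only term, two-sided, Benjamini-Hochberg over all 14249 tested genes, threshold 0.05. A gene was tested if 2 or more libraries had 0.5226 CPM and its reads came to 15 or more. The steps were also run on simulated data. There the true gene lengths and totals were given and the median gene did not differ between genotypes. Those runs therefore cannot show a wrongly picked length or the effect of a shift in the median gene. Coordinates are from RefSeq (GRCm38.p6). Python 3.11.15, pandas 2.3.3 and numpy 2.4.6 were used.

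The 41 members and all lists were chosen with earlier results of these data known, so no list is independent evidence. Every member is named. Values in every library are given for called members, Gata3 and those with the largest differences in each role group, and were added for the others after their values were seen. Outside the members, all called genes are named for the other regulators and for the LTi and group 3 markers. For the remaining lists the called genes are counted, and only some are named. Ccr6, Il7r, Ncr1, Klrb1c, Klrg1, Tnfsf4, Cd3e, Lat, Cd247, Pax5, Siglech, Slc29a3, the GATA paralogs, Tcf7l2, Chd4, Mta2, Rbbp4, Ncor1 and Sin3a were named after their values were seen. So were Arg1, Areg, Klrk1, Rora, Nfil3, Hhex, Runx2, Irf1 and Batf3. Marker lists for myeloid cells, group 2 cells, NK and group 1 cells and stroma had 1, 1, 0 and 0 genes called higher and 0, 2, 2 and 0 lower. Of 14 LTi and group 3 markers 1 was called higher and 2 lower. Alternatives were median-ratio and upper-quartile scaling, limma-voom, a filter of 5 CPM or none, a pseudocount of 0.1, a replicate block and leaving out each library.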

Additional observations from a re-analysis of the deposited data

How the results depend on the processing

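Gata3 and the 5 called genes held their direction under each setting run: Irf4 ranged from 2.77 to 4.26, Bcl11b from 2.09 to 4.34, Id3 from 1.70 to 2.80, Id1 from 1.39 to 2.32, Ikzf2 from -3.30 to -1.41 and Gata3 from -1.81 to -0.82. The number of genes called depended on the scaling, the tool, the pseudocount and the filter. The 1283 genes called over the whole table (1185 higher, 98 lower) and 5 of the 41 (4 higher, 1 lower) became 145 (83, 62) and 0 (0, 0) with median-ratio scaling, 166 (98, 68) and 0 (0, 0) with upper-quartile scaling, 272 (226, 46) and 3 (2, 1) with limma-voom, and 87 (26, 61) and 1 (0, 1) with limma-voom and median-ratio scaling. A pseudocount of 0.1 gave 851 (779, 72) and 4 (4, 0), with Ikzf2 lost, and the stricter filter of 5 CPM gave 1718 and 6, with Bcl6 added and Zfpm1, Ikzf4 and Foxp3 not tested. Without a filter limma called 0 genes (0 higher, 0 lower) and 0 of the 41, with 4336 and 12 at an unadjusted p under 0.05. Without any 1 of the 4 libraries limma called 0 to 0 genes and 0 to 0 of the 41, in either direction, with 3621, 3815, 2698 and 2412 genes at an unadjusted p under 0.05 without control replicates 1 and 2 and VavCre replicates 1 and 2, and 10, 14, 10 and 9 of the 41; such a fit has 1 library fewer and assumes that the lone library of a genotype varies like the others, and since it called no gene of the table it does not show that a call rests on 1 library. Other causes were not tested.

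Replicate numbers are shared between genotypes, but same-numbered samples did not deviate together (r = -0.02 over genes), so the number was not taken as a pairing. With a replicate block 1012 genes (937 higher, 75 lower) and 4 of the 41 (4, 0) were called, Ikzf2 having an adjusted p of 0.056, and with a replicate block and median-ratio scaling 26 (19, 7) and 0 (0, 0).

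The sign of an uncalled difference turned as follows under median-ratio, upper-quartile, limma-voom with median-ratio and replicate block with median-ratio settings, in that order. Zfpm1 lay at -0.31, -0.32, -0.44 and -0.31, Tcf7 at -0.14, -0.18, -0.15 and -0.14, Tox at -0.57, -0.61, -0.59 and -0.57, and Tcf12 at -0.12, -0.15, -0.19 and -0.12. Zbtb16 lay at -0.21, -0.24, -0.22 and -0.21, Zbtb7b at -0.24, -0.27, -0.30 and -0.24, Ikzf1 at -0.22, -0.25, -0.23 and -0.22, and Ikzf3 at -0.12, -0.15, -0.13 and -0.12. Cbfb lay at -0.22, -0.24, -0.15 and -0.22, Ets1 at -0.30, -0.33, -0.31 and -0.30, Zeb1 at -0.39, -0.43, -0.43 and -0.39, Irf2 at -0.15, -0.18, -0.16 and -0.15, and Foxo3 at -0.05, -0.08 and, with the block, -0.05. Over the fits that left out 1 library, the difference ranged across 0 from -0.31 (without control replicate 1) to 0.34 (without control replicate 2) in Zfpm1, from -0.39 (without VavCre replicate 1) to 0.41 (without VavCre replicate 2) in Tox, from -1.59 (without VavCre replicate 1) to 0.47 (without VavCre replicate 2) in Tox2, and from -1.0 (without control replicate 2) to 0.29 (without control replicate 1) in Id2. It ranged from -0.10 to 0.76 in Tcf12, where VavCre replicate 2 turned it, from -0.01 to 0.72 in Zbtb16, where VavCre replicate 1 did, from -0.58 to 0.24 in Satb1, where control replicate 1 and VavCre replicate 2 did, and from -0.13 to 2.60 in Foxp3, where VavCre replicate 2 did. Control replicate 1 turned it in Cbfb (-0.37 to 0.68), Foxo3 (-0.35 to 1.34) and Bhlhe40 (-0.76 to 0.10), control replicate 2 in Ets1 (-0.01 to 0.59) and Zeb1 (-0.23 to 0.55), and control replicate 2 or VavCre replicate 1 in Runx3 (-0.18 to 0.04).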
